A study of Mus musculus with 79 samples.

Results

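The 10 genes described here encode growth factors of the PDGF and TGF-beta families and the receptors that bind them. They are the ligand genes Pdgfa, Pdgfb, Tgfb1, Tgfb2 and Tgfb3 and the receptor genes Pdgfra, Pdgfrb, Tgfbr1, Tgfbr2 and Tgfbr3. They were chosen by name, with earlier results of these data known. Each has 1 row, and they are 10 of the 31350 rows of the expression table. Expression was measured in the right lung of 79 mice with 1 array each, in 16 groups of 4 to 6 mice set by genotype, exposure, sex and exposure duration.

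All mice were C57BL/6J littermates aged 5 to 7 weeks. The βENaC mice carry a transgene that overexpresses Scnn1b, a subunit of the epithelial sodium channel, in the airway epithelium, and the WT littermates do not carry it. Smoke-exposed mice received the smoke of 6 research cigarettes per day with the filters removed, and sham-exposed mice breathed room air in the same kind of chamber for the same time. Exposures lasted 1 day (20 smoke-exposed and 20 sham-exposed mice) or 5 days (19 and 20 mice), and the lungs were taken 4 h after the last exposure. Each duration had its own sham-exposed mice, and the whole lung was homogenized, so the values average over all its cell types.

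PDGF ligands are dimers of A, B, C or D chains that activate the receptor tyrosine kinases PDGFRα and PDGFRβ. In the lung, PDGF-A from epithelium acts on PDGFRα-positive fibroblasts that help to build alveolar septa, and PDGF-B from endothelium recruits PDGFRβ-positive pericytes to vessels. TGF-beta ligands are secreted in a latent complex and released by integrins and other activators. They bind the type II receptor TGFBR2, which phosphorylates the type I receptor TGFBR1 and so activates SMAD2 and SMAD3, while TGFBR3 (betaglycan) is a co-receptor that presents ligand, TGF-beta 2 above all.

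Values are normalized log2 intensities, in which a difference of 1 is a doubling. Differences come from a linear model with terms for exposure, genotype and sex, fitted to each duration with limma over all rows. A gene is called changed at a Benjamini-Hochberg adjusted p below 0.05 over the 31350 rows, and ± is the standard error of a fitted difference unless SD is named. The intensity of 1 gene's probes cannot be set against another's, so levels are compared only between mice.

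In the 40 WT mice Scnn1b had a mean of 8.98 ± 0.21 (SD) and in the 39 βENaC mice a mean of 11.69 ± 0.10 (SD), and the ranges were apart. The authors had reassigned 1 mouse by this gene, so the check is not fully independent of the labels. The surfactant gene Sftpc had a mean of 12.66 and the club cell gene Scgb1a1 a mean of 13.19. No other tissue was measured, so these levels do not test the whole-lung label. The correlation of an array with the mean of its own group had a median of 0.995, and it lay below 0.990 on 4 arrays, which stand apart. They are βENaC smoke-exposed female replicate 3 and WT smoke-exposed female replicate 2 of the 5-day mice, and βENaC sham-exposed male replicate 1 and βENaC smoke-exposed female replicate 5 of the 1-day mice. Results are given with them and, where a call of the 10 genes depends on them, without them.

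After 5 days of smoke, 3 of the 5 ligand genes were lower, Pdgfb, Tgfb2 and Tgfb3, and the co-receptor gene Tgfbr3 was higher. After 1 day, the called genes were both receptor genes, Pdgfra and Tgfbr3, and both were higher. The calls at 5 days were thus 1 higher and 3 lower of 10, where 3.17% of all rows were called higher and 3.37% lower. The calls at 1 day were 2 higher and 0 lower of 10, where 5.03% of all rows were called higher and 4.43% lower. The median difference of the 10 genes was 0.0079 at 1 day and -0.044 at 5 days, beside 0.010 and -0.0018 over all rows. In whole lung, fewer cells of a type and less RNA per cell cannot be told apart.

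**Figure D1:**
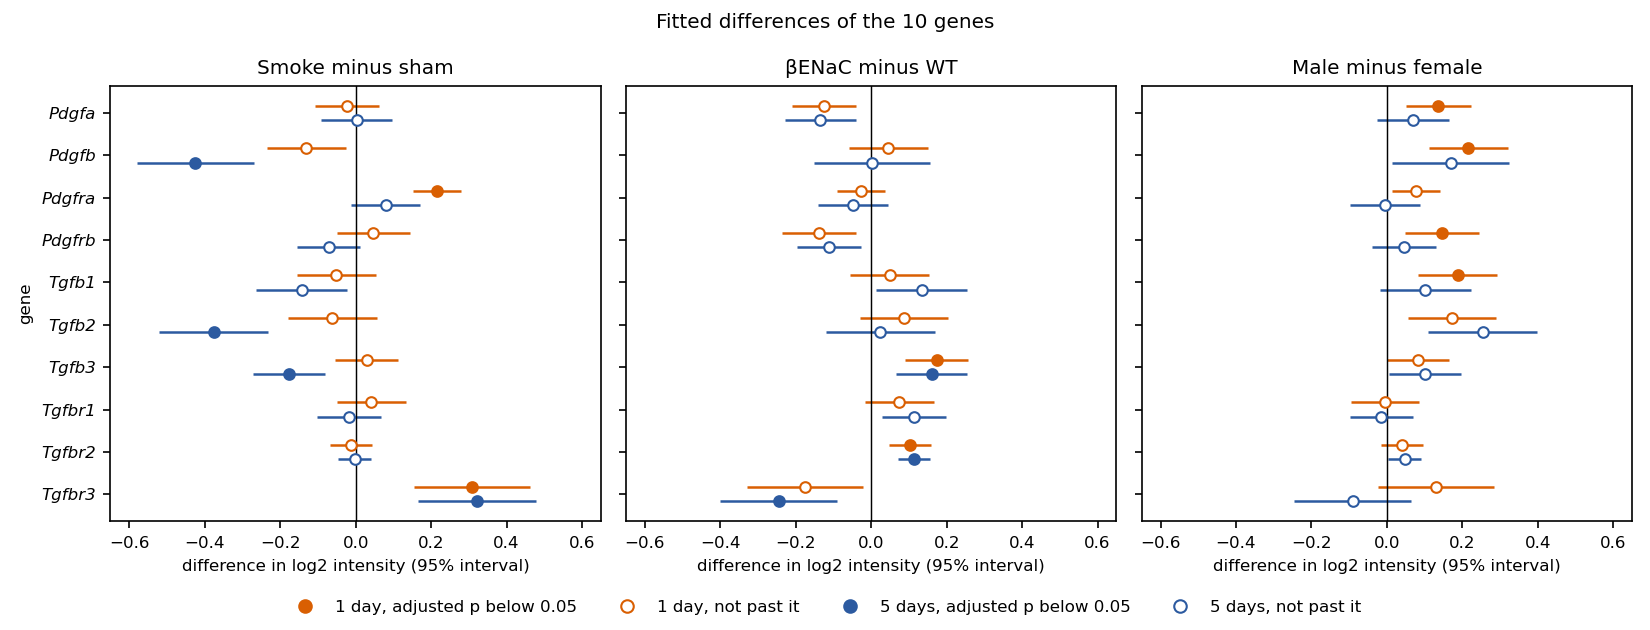
Fitted differences in log2 intensity (x axis) of the 10 genes (y axis) for smoke minus sham, βENaC minus WT and male minus female, with 95% intervals. Filled points have an adjusted p below 0.05, orange is the 1-day fit and blue the 5-day fit. Pdgfb, Tgfb2 and Tgfb3 lie below 0 for smoke at 5 days, and Tgfbr3 lies above 0 at both durations.

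Pdgfb (NM_011057, chromosome 15) encodes the PDGF-B chain and showed the largest smoke difference of the 10 genes over both durations. After 5 days it ranged from 8.89 to 9.59 with a median of 9.19 in sham-exposed mice, and from 7.61 to 9.11 with a median of 8.90 in smoke-exposed mice. Of the 19 smoke-exposed mice, 19 were below the sham mean of their own genotype and sex, and 18 of the 20 sham-exposed mice were above the highest smoke-exposed mouse. The fitted difference was -0.42 ± 0.08 (adjusted p = 0.000208 in limma), which is 1.34-fold lower.

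Pdgfb had a lower mean with smoke in each group of genotype and sex. In limma it passed in βENaC mice alone (-0.42 ± 0.07, adjusted p = 0.00518) and in males alone (-0.30 ± 0.06, adjusted p = 0.00777). It did not pass in WT mice alone (-0.43 ± 0.13, adjusted p = 0.0976) or in females alone (-0.55 ± 0.13, adjusted p = 0.0504). In WT males, the 4 smoke-exposed mice were at 8.99, 9.02, 9.04 and 9.11, and the 5 sham-exposed mice at 9.13, 9.21, 9.26, 9.27 and 9.35. In βENaC females, the 5 smoke-exposed mice were at 8.45, 8.58, 8.80, 8.91 and 8.93, and the 4 sham-exposed mice at 9.04, 9.17, 9.18 and 9.38. These groups did not overlap, nor did the βENaC males, whereas the WT females did, with smoke-exposed mice at 7.61, 8.72, 8.79, 8.87 and 8.89 and sham-exposed mice from 8.89 to 9.48. The mean differences ran from -0.62 in WT females to -0.20 in WT males. The WT female at 7.61 is 1 of the arrays that stand apart, and without it the difference over all mice was -0.36 (adjusted p = 1.83e-06).

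Pdgfb was the only one of the 10 genes to pass the threshold of 1.3-fold that the study used for response genes, at 5 days, where 1.15% of all rows passed it together with the adjusted p. At 1 day 0 of the 10 passed it, beside 1.07% of all rows. After 1 day Pdgfb was at a median of 9.26 in sham-exposed and 9.13 in smoke-exposed mice, with ranges that overlapped from 8.77 to 9.41. The difference of -0.13 ± 0.05 did not pass the test (adjusted p = 0.114, 95% interval -0.24 to -0.026), although 18 of 20 smoke-exposed mice were below the sham mean of their group. It passed without 1 mouse, βENaC smoke-exposed female replicate 2 (-0.15, adjusted p = 0.0425), and after cyclic loess normalization (-0.14, adjusted p = 0.0472).

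Tgfb2 (NM_009367, chromosome 1) encodes the ligand that depends most on the co-receptor TGFBR3 for binding. After 5 days it ranged from 7.34 to 8.30 with a median of 7.82 in sham-exposed mice, and from 6.50 to 7.86 with a median of 7.47 in smoke-exposed mice. All 19 smoke-exposed mice were below the sham mean of their own genotype and sex, though the ranges overlapped except in βENaC females. The difference was -0.38 ± 0.07 (adjusted p = 0.000451), just under the 1.3-fold threshold. The lowest mouse was the same WT female as for Pdgfb, and without it the difference was -0.33 (adjusted p = 0.000226). At 1 day the difference was -0.062 ± 0.058 (adjusted p = 0.599, 95% interval -0.18 to 0.056).

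Tgfb3 (NM_009368, chromosome 12) encodes the third TGF-beta ligand and was also lower after 5 days of smoke, by less. It ranged from 7.96 to 8.85 with a median of 8.64 in sham-exposed mice, and from 8.03 to 8.68 with a median of 8.41 in smoke-exposed mice. The difference was -0.18 ± 0.05 (adjusted p = 0.0146), and 16 of 19 smoke-exposed mice were below the sham mean of their group. In βENaC mice alone the difference was -0.25 ± 0.05 (adjusted p = 0.0099). In WT mice alone it was -0.10 ± 0.08 (adjusted p = 0.635), but the difference between the genotypes did not pass its own test (-0.14 ± 0.09, adjusted p = 0.999974). By genotype and sex the differences ran from -0.33 in βENaC females to 0.00092 in WT females. At 1 day the difference over all mice was 0.029 ± 0.041 (adjusted p = 0.747).

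Tgfb1 (NM_011577, chromosome 7), whose ligand is the TGF-beta most studied in fibrosis, was not called for smoke at either duration. After 5 days it ranged from 8.81 to 9.80 with a median of 9.37 in sham-exposed mice, and from 8.97 to 9.91 with a median of 9.20 in smoke-exposed mice. The difference was -0.14 ± 0.06 (adjusted p = 0.164, 95% interval -0.26 to -0.023). The value of 9.91 belongs to βENaC smoke-exposed female replicate 3, which stands apart. The other 4 smoke-exposed females of that genotype lay between 9.00 and 9.10, and without that mouse the difference was -0.18 (adjusted p = 0.0151).

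Pdgfa (NM_008808, chromosome 5), the gene of the PDGF-A chain, had the smallest smoke difference of the ligand genes. The difference was -0.023 ± 0.042 at 1 day (adjusted p = 0.814, 95% interval -0.11 to 0.062). It was 0.0031 ± 0.047 at 5 days (adjusted p = 0.987, 95% interval -0.092 to 0.098).

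**Figure D2:**
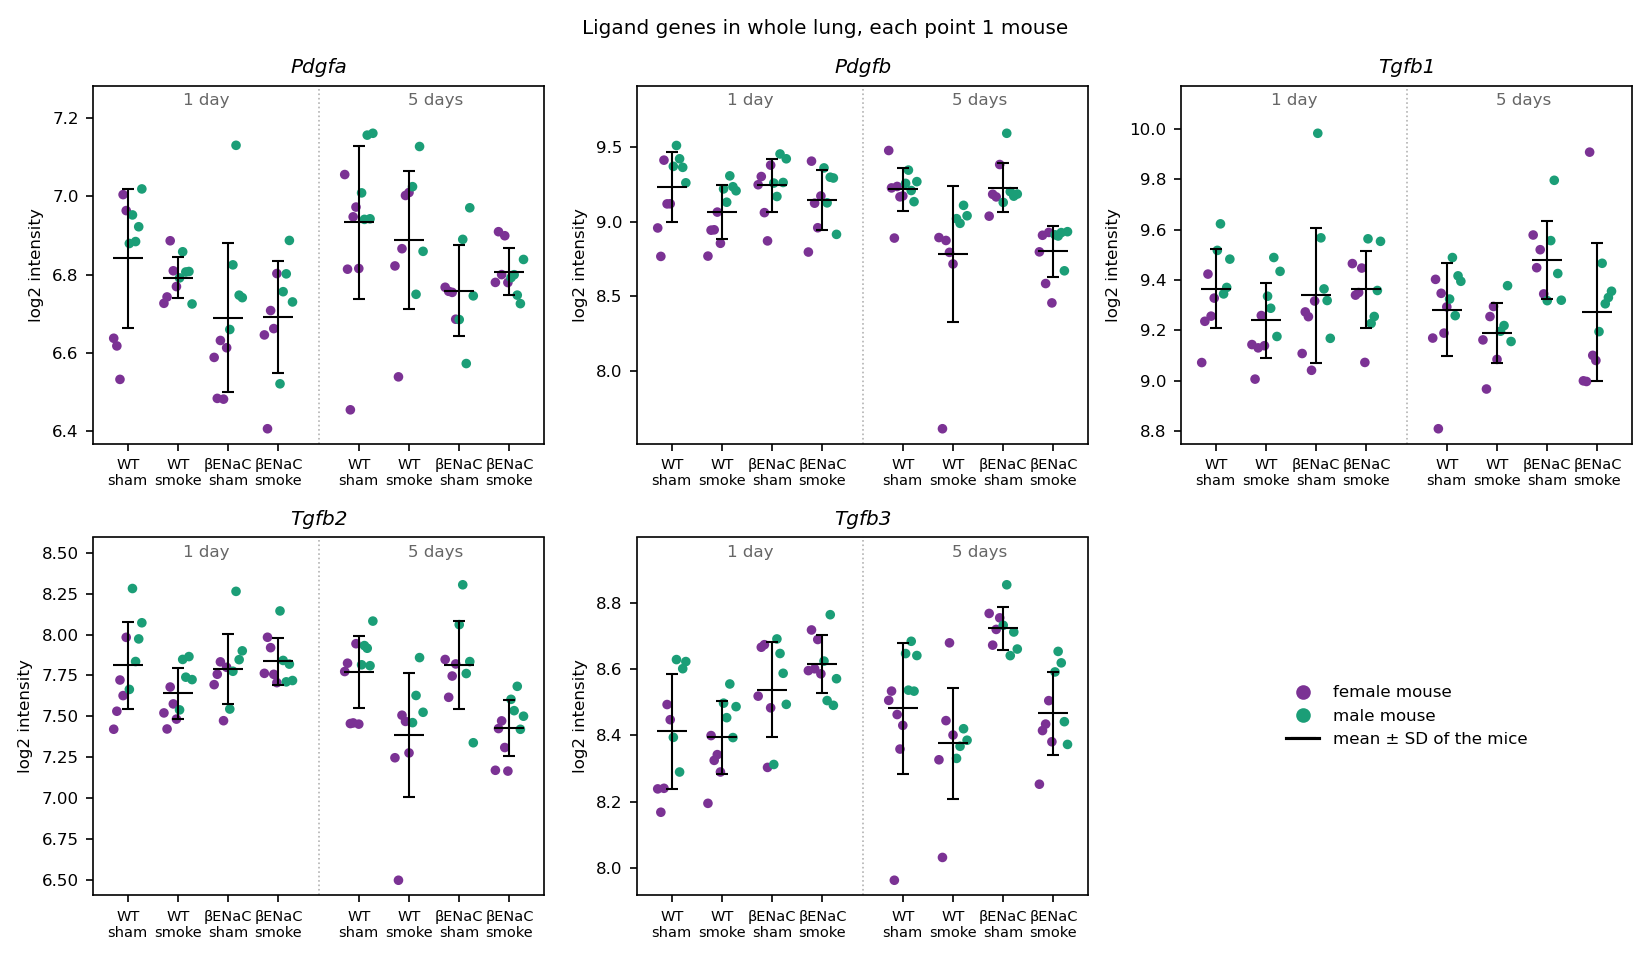
Log2 intensity (y axis) of the 5 ligand genes in each mouse, by genotype and exposure (x axis) and by duration, with females in purple and males in green, and the mean with SD as bars. The smoke-exposed mice of the 5-day exposure lie lower than the sham-exposed mice for Pdgfb and Tgfb2, and 1 WT female lies far below the rest at 7.61 and 6.50.

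Pdgfra (NM_001083316, chromosome 5) encodes the receptor of PDGF-A and marks lung fibroblasts. After 1 day it ranged from 10.50 to 10.86 with a median of 10.69 in sham-exposed mice, and from 10.65 to 11.04 with a median of 10.93 in smoke-exposed mice. All 20 smoke-exposed mice were above the sham mean of their own genotype and sex, and 15 of them were above the highest sham-exposed mouse. The difference was 0.22 ± 0.03 (adjusted p = 7.23e-06), which is 1.16-fold higher. It was nearly the same in each genotype and sex, from 0.18 in βENaC females to 0.25 in WT females. After 5 days it was 0.079 ± 0.045 (adjusted p = 0.369, 95% interval -0.012 to 0.17), with 15 of 19 smoke-exposed mice above the sham mean of their group.

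Tgfbr3 (NM_011578, chromosome 5), the co-receptor gene, was the only 1 of the 10 called for smoke at both durations. After 1 day it ranged from 8.18 to 9.34 with a median of 8.93 in sham-exposed mice, and from 8.75 to 9.58 with a median of 9.30 in smoke-exposed mice. After 5 days it ranged from 8.37 to 9.35 with a median of 8.98 in sham-exposed mice, and from 8.37 to 10.01 with a median of 9.31 in smoke-exposed mice. The ranges overlapped at both durations, and the smoke-exposed mice above the sham mean of their group were 17 of 20 and 18 of 19.

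The difference of Tgfbr3 was 0.31 ± 0.08 at 1 day (adjusted p = 0.00584) and 0.32 ± 0.08 at 5 days (adjusted p = 0.00604). It was the most variable of the 10 genes over all mice, with an SD of 0.31. The highest and the lowest smoke-exposed mouse at 5 days, at 10.01 and 8.37, are arrays that stand apart, and without all 4 such arrays the difference was 0.33 (adjusted p = 0.000165). At 1 day the difference was 0.16 ± 0.09 in females and 0.45 ± 0.11 in males, and these did not pass the test of their difference (0.29 ± 0.15, adjusted p = 0.79).

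The other receptor genes were not called for smoke. Tgfbr2 (NM_009371, chromosome 9), the type II receptor gene, had the narrowest intervals, -0.069 to 0.043 at 1 day and -0.045 to 0.041 at 5 days. Tgfbr1 (NM_009370, chromosome 4), the type I receptor gene, differed by 0.041 ± 0.045 and -0.017 ± 0.042. Pdgfrb (NM_001146268, chromosome 18), which marks pericytes and other mural cells, differed by 0.047 ± 0.049 and -0.072 ± 0.042. The smallest adjusted p among these 6 tests was 0.381.

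**Figure D3:**
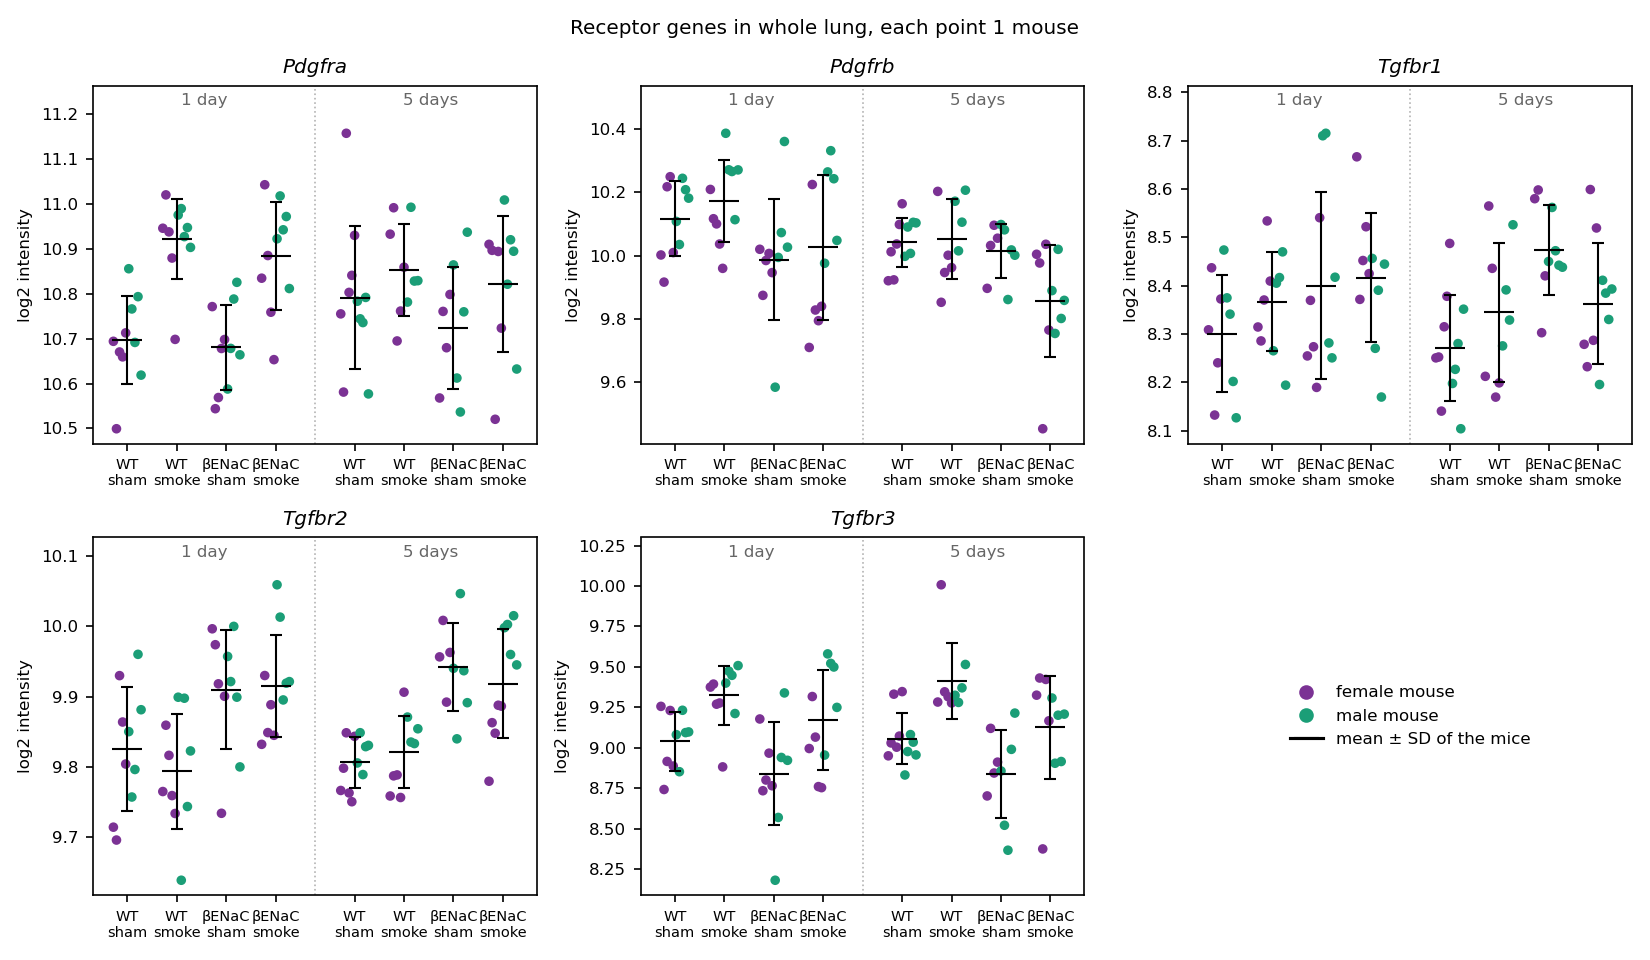
Log2 intensity (y axis) of the 5 receptor genes in each mouse, by genotype and exposure (x axis) and by duration, with females in purple and males in green, and the mean with SD as bars. Pdgfra lies higher in smoke-exposed than sham-exposed mice after 1 day, and Tgfbr3 after both durations with wide overlap.

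Promoters are shown for the smoke-called genes that have one in the RefSeq promoter table, which are Pdgfra, higher at 1 day, and Tgfb2, lower at 5 days. The window runs from 250 bases before to 50 bases after the start, in build GRCm38.p6, and capitals mark the motif CAGAC, the core of a SMAD-binding element, read on either strand. Pdgfra lies on the plus strand at chr5:75152001-75152300 and Tgfb2 on the minus strand at chr1:186705940-186706239.
Pdgfra: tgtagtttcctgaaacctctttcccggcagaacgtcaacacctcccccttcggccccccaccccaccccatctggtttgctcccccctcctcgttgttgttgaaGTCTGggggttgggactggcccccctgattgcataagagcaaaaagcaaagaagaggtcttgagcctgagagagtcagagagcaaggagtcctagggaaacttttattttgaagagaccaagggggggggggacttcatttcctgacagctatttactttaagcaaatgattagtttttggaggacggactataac
Tgfb2: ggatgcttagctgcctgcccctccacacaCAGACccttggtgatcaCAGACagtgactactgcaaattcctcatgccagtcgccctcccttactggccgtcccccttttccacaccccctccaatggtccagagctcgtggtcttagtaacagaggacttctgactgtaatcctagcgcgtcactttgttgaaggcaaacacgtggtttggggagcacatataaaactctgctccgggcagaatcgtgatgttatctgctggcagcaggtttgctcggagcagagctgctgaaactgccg
Pdgfra holds 1 match to CAGAC and Tgfb2 holds 2, and 49.6% of the 32851 promoters of this length hold at least 1. Neither window holds GCGTG, the core bound by the aryl hydrocarbon receptor, which is in 32.4% of promoters, or TGANTCA, the AP-1 motif, which is in 7.81%, both read on either strand. The promoter of Tgfb2 had a GC content of 54.3% and that of Pdgfra 51.0%, beside a median of 52.7% over all promoters. A match describes the letters of the window and is not a measured binding site.

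The smoke differences at 1 and 5 days were set against each other in 1 fit over all 79 mice with an exposure by duration term. This fit had no terms for genotype and sex, unlike the fits of each duration. In 10 other settings, among them with genotype and sex added, 0 of the 10 genes were called. The lowest adjusted p of this term over those settings was 0.0598, for Tgfb2. None of the 10 genes was called in limma, where 0.612% of all rows were called. At an unadjusted p below 0.05 were 4 in limma and 4 in the ordinary linear model, beside 11.1% of all rows in limma. The change from 1 to 5 days was -0.30 ± 0.10 for Pdgfb (adjusted p = 0.159) and -0.32 ± 0.10 for Tgfb2 (adjusted p = 0.137). It was -0.20 ± 0.07 for Tgfb3 (adjusted p = 0.24) and -0.14 ± 0.06 for Pdgfra (adjusted p = 0.269). For Tgfbr3 it was -0.0027 ± 0.12, with a 95% interval of -0.24 to 0.24. Thus Pdgfb, Tgfb2 and Tgfb3 passed the test at 5 days and not at 1 day, and the difference between the durations did not pass it.

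The sham-exposed mice of both durations were compared in the same fit. Of the 10 genes 0 were called in limma and 0 in the ordinary linear model, beside 0.0351% of all rows in limma. At an unadjusted p below 0.05 in limma was 1 of the 10, beside 10.4% of all rows. That 1 gene was Tgfb3, at 0.12 ± 0.05 higher in the 5-day sham-exposed mice (adjusted p = 0.402). The sham levels of Pdgfb differed by -0.015 ± 0.071 and those of Tgfb2 by -0.010 ± 0.073.

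Whether genotype or sex altered the smoke difference was tested with both interaction terms at once. At 1 day 0 of the 10 genes were called, with 0 at an unadjusted p below 0.05 in limma and in the ordinary linear model, and 0.00638% of all rows were called. At 5 days 0 were called, with 0 at an unadjusted p below 0.05 in limma and 1 in the ordinary linear model, and 0% of all rows were called. The share of all rows at an unadjusted p below 0.05 in limma was 7.26% at 1 day and 3.46% at 5 days. The smallest adjusted p among the 10 genes was 0.744 at 1 day.

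Apart from smoke, βENaC and WT mice differed in the ligand gene Tgfb3 and the receptor gene Tgfbr2 at both durations. Tgfb3 had a median of 8.59 (8.30 to 8.76) in 20 βENaC and 8.40 (8.17 to 8.63) in 20 WT mice of the 1-day exposure. In the 5-day exposure it had a median of 8.64 (8.25 to 8.85) in 19 βENaC and 8.44 (7.96 to 8.68) in 20 WT mice. The βENaC minus WT difference was 0.17 ± 0.04 (adjusted p = 0.00522) and 0.16 ± 0.05 (adjusted p = 0.0211), with overlapping ranges. The mean was higher in βENaC mice in all 4 groups of exposure and sex at each duration, by unequal amounts. At 1 day these differences ran from 0.039 in sham-exposed males to 0.33 in smoke-exposed females. At 5 days they ran from 0.021 in smoke-exposed females to 0.35 in sham-exposed females.

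Tgfbr2 was also higher in all 4 groups of exposure and sex at each duration, by a small amount. In the 5-day mice it ranged from 9.78 to 10.05 with a median of 9.94 in βENaC mice, and from 9.75 to 9.91 with a median of 9.82 in WT mice. The difference was 0.11 ± 0.02 (adjusted p = 0.000287), which is 1.08-fold. In the 1-day mice it was 0.10 ± 0.03 (adjusted p = 0.0159).

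Tgfbr3 was lower in βENaC mice of the 5-day exposure, at a median of 8.99 (8.37 to 9.43) beside 9.28 (8.83 to 10.01) in WT mice. The difference was -0.25 ± 0.08 (adjusted p = 0.0333), and at 1 day it was -0.18 ± 0.08 (adjusted p = 0.199). The call at 5 days was lost without the 4 arrays that stand apart (-0.17, adjusted p = 0.0633). It was also lost without any one of 5 mice, with adjusted p from 0.0512 to 0.0613, and these were WT smoke-exposed female replicate 2, WT smoke-exposed male replicate 5, βENaC sham-exposed female replicate 1 and βENaC sham-exposed male replicates 2 and 3.

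The genotype calls were 2 higher and 0 lower of 10 in the 1-day mice, where 3.58% of all rows were called higher and 2.29% lower. They were 2 higher and 1 lower in the 5-day mice, where 4.85% were called higher and 5.33% lower. Pdgfa had a lower mean in βENaC mice in all 4 groups of exposure and sex at each duration, at -0.13 ± 0.04 (adjusted p = 0.0717) and -0.13 ± 0.05 (adjusted p = 0.06), and whether it passed the test depended on the setting. At 5 days it passed in 5 of 10 other settings, among them without the 4 arrays that stand apart (-0.16, adjusted p = 0.0204), and at 1 day in 3 of 10, which were median centring, quantile and cyclic loess normalization. Beside these differences, 4 of 5 alveolar macrophage markers were higher in βENaC mice at each duration, such as Itgax by 1.21 ± 0.14 at 5 days. Of 10 endothelial markers 1 was higher and 4 lower at 1 day, and 1 was higher (Emcn) and 5 lower at 5 days. At 5 days 3 of 5 smooth muscle, 3 of 4 alveolar type 1 and 3 of 9 fibroblast markers were also lower in βENaC mice. At 1 day 1 of 5 smooth muscle and 1 of 4 alveolar type 1 markers were lower, whereas 2 of 9 fibroblast markers were higher and 0 lower. Their part in the genotype differences was not tested.

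Males had higher levels than females in 4 of the 10 genes in the 1-day mice, where 7.82% of all rows were called higher in males. Pdgfb had a median of 9.28 (8.91 to 9.51) in males and 9.06 (8.77 to 9.41) in females, a difference of 0.22 ± 0.05 (adjusted p = 0.0044). Tgfb1 had a median of 9.37 (9.17 to 9.98) in males and 9.26 (9.01 to 9.47) in females, a difference of 0.19 ± 0.05 (adjusted p = 0.0137). The ranges of both genes overlapped between the sexes.

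Pdgfa (0.14 ± 0.04, adjusted p = 0.0311) and Pdgfrb (0.15 ± 0.05, adjusted p = 0.0453) were near the threshold. Both lost their call when the arrays were centred on their medians or normalized again by quantile or cyclic loess. Pdgfa also lost it without any one of 5 mice (adjusted p from 0.0501 to 0.0521) and Pdgfrb without any one of 24 of the 40 mice. The 5 mice for Pdgfa were WT sham-exposed female replicates 2 and 3, βENaC sham-exposed female replicate 4, βENaC smoke-exposed female replicate 2 and βENaC smoke-exposed male replicate 4. In the 5-day mice 0 of the 10 genes were called for sex in limma and 0 in the ordinary linear model, beside 0.616% of all rows in limma. At an unadjusted p below 0.05 in limma were 4 of the 10, beside 11.3% of all rows. Tgfb2 came nearest there, 0.25 ± 0.07 higher in males (adjusted p = 0.0903), and at 1 day it was 0.17 ± 0.06 higher (adjusted p = 0.0509). At 1 day Tgfb2 passed in 5 of 10 other settings, among them without the 4 arrays that stand apart (0.19, adjusted p = 0.0216). Whether the sex difference changed with duration was not tested. In the 1-day mice 6 of 9 fibroblast markers and 4 of 5 platelet markers were also higher in males, where 7.82% of all rows were. Examples were Col1a1 by 0.50 ± 0.08 and Gp9 by 1.14 ± 0.17. Also higher were 2 of 10 endothelial, 2 of 6 pericyte and 2 of 4 alveolar type 1 markers. So were 1 of 4 alveolar type 2 and 1 of 3 mesothelium markers. Of 4 leukocyte markers 1 was lower. Smooth muscle, airway epithelium, alveolar macrophage and heart muscle markers were not called. The part of these cell types in the sex differences was not tested.

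Other genes of the 2 pathways were taken from a list of 46, of which 45 had a row. At 1 day 10 of 45 were higher with smoke and 0 were lower, where 5.03% of all rows were higher and 4.43% lower, with a median difference of 0.075 beside 0.010 over all rows. At 5 days 4 were higher and 4 lower, where 3.17% of all rows were higher and 3.37% lower, with a median of -0.019 beside -0.0018. Without the 4 arrays that stand apart the counts were 10 higher and 1 lower at 1 day, and 5 higher and 6 lower at 5 days. For the change between the durations 0 of the 45 were called in limma, where 0.612% of all rows were called. At an unadjusted p below 0.05 were 11 of the 45, beside 11.1% of all rows.

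Among the PDGF ligands and the proteases that process them, Pdgfd and Plat changed. Pdgfd, the gene of the PDGF-D chain, was lower after 5 days by -0.30 ± 0.04 (adjusted p = 9.34e-06), after -0.17 ± 0.06 at 1 day (adjusted p = 0.0649). Plat, the gene of tissue plasminogen activator, which cleaves latent PDGF-C, was higher after 1 day by 0.37 ± 0.07 (adjusted p = 0.000375). Pdgfc itself differed by 0.058 ± 0.062 and 0.11 ± 0.07 and was not called.

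Of the 10 genes for latency and activation of TGF-beta, 0 were called at 1 day in limma, beside 5.03% of all rows higher and 4.43% lower. At an unadjusted p below 0.05 were 0 of the 10, beside 21.5% of all rows. At 5 days 1 was higher and 1 lower, beside 3.17% of all rows higher and 3.37% lower. Lrrc32, which encodes GARP, the protein that holds latent TGF-beta on the cell surface, was higher after 5 days by 0.32 ± 0.06 (adjusted p = 0.000622). Itgb6, a subunit of the integrin αvβ6 that activates latent TGF-beta on epithelium, was lower after 5 days by -0.24 ± 0.06 (adjusted p = 0.00557). The thrombospondin gene Thbs1 and the 4 Ltbp genes were not called.

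Of the 2 genes for other receptors, Acvrl1 was higher and Eng was not called. Acvrl1, which encodes the type I receptor ALK1 of endothelium, was higher by 0.31 ± 0.05 at 1 day (adjusted p = 3.97e-05) and by 0.30 ± 0.06 at 5 days (adjusted p = 0.000428). It was the only one of the 45 genes called at both durations, as Tgfbr3 was of the 10. Eng, which encodes the co-receptor endoglin, differed by 0.078 ± 0.048 and 0.026 ± 0.042.

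Of the 6 signal transducers, Smad4, the common partner of the activated SMADs, was higher at 1 day by 0.091 ± 0.028 (adjusted p = 0.0275), where 5.03% of all rows were higher. At 5 days 0 of the 6 were called in limma, with 1 at an unadjusted p below 0.05, beside 18.2% of all rows at that level. The call of Smad4 was lost after quantile (adjusted p = 0.0673) or cyclic loess normalization (adjusted p = 0.0682). Smad2 and Smad3, which the type I receptor phosphorylates, were not called at either duration.

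Of 11 inhibitors and feedback genes, 6 were called at 1 day, all higher, where 5.03% of all rows were. The difference from the other lists was not tested. Smad6 was higher by 0.28 ± 0.07 (adjusted p = 0.0106) and Smad7 by 0.18 ± 0.04 (adjusted p = 0.00536), and both encode inhibitory SMADs that block the receptor's signal. Smurf2, a ubiquitin ligase that removes receptors and SMADs, was higher by 0.13 ± 0.03 (adjusted p = 0.0072), and Tgif1, a corepressor of SMAD2, by 0.19 ± 0.05 (adjusted p = 0.00585). Bambi, a decoy receptor, was higher by 0.18 ± 0.06 (adjusted p = 0.0357), and the corepressor Ski by 0.097 ± 0.032 (adjusted p = 0.0482). The call of Ski was lost without the 4 arrays that stand apart (adjusted p = 0.0587) and after quantile normalization (adjusted p = 0.0749).

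At 5 days the inhibitor called was Fst, which encodes follistatin, a binder of activin, higher by 0.60 ± 0.13 (adjusted p = 0.00278). Smad7 was at 0.0081 ± 0.043 (adjusted p = 0.955) and Smad6 at 0.14 ± 0.06 (adjusted p = 0.175). The changes of these inhibitors between the durations did not pass the test, at -0.18 ± 0.06 for Smad7 (adjusted p = 0.197).

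Of 12 measured TGF-beta target genes, 1 was higher at 1 day, where 5.03% of all rows were higher. At 5 days 1 was higher and 2 were lower, where 3.17% of all rows were higher and 3.37% lower. Cdkn1a, the cell cycle inhibitor p21, was higher after 1 day by 0.48 ± 0.09 (adjusted p = 0.000474). Ccn2, connective tissue growth factor, was higher after 5 days by 0.31 ± 0.09 (adjusted p = 0.02). The collagen genes Col3a1 (-0.58 ± 0.15, adjusted p = 0.0122) and Col1a1 (-0.39 ± 0.12, adjusted p = 0.0476) were lower after 5 days. Acta2 and Tagln, other common targets, were not called at either duration.

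**Figure D4:**
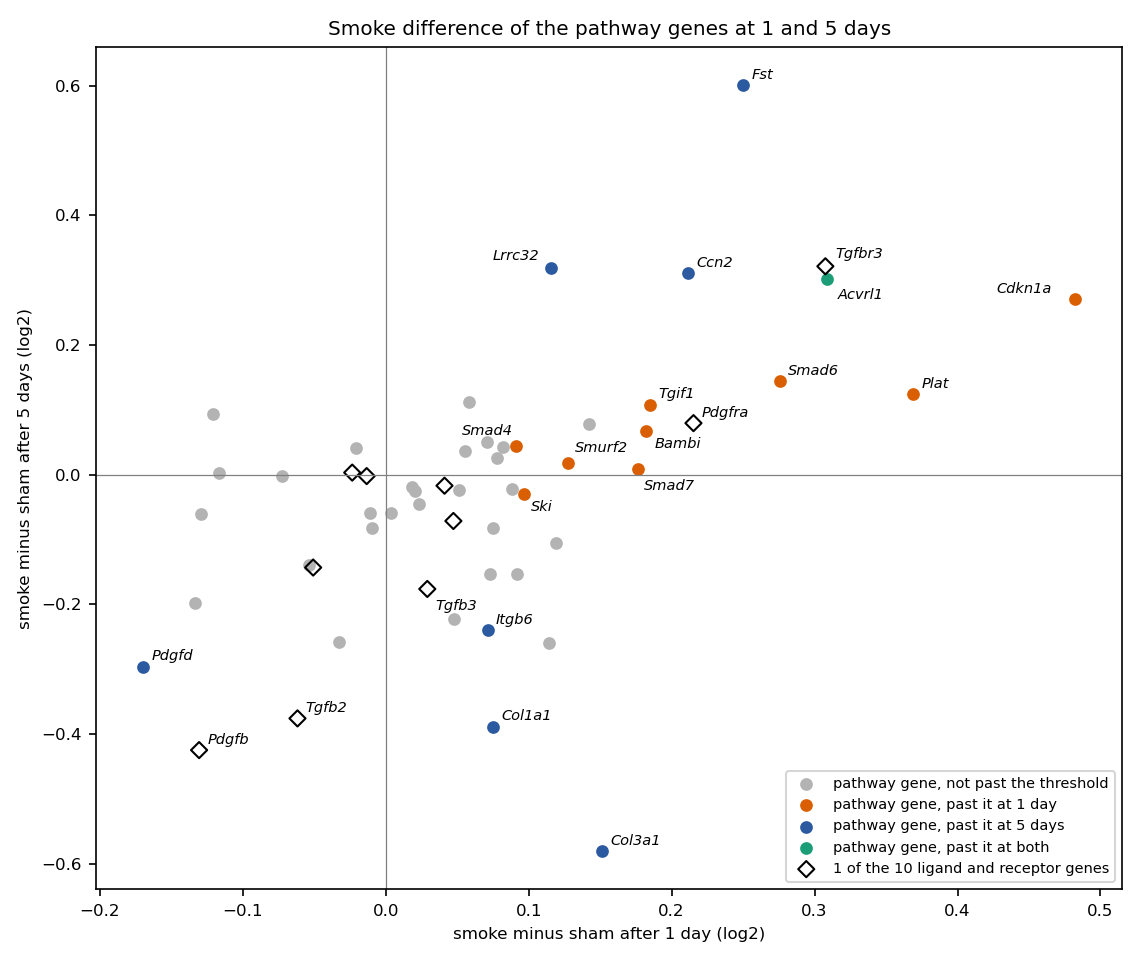
Smoke minus sham difference in log2 intensity after 1 day (x axis) and after 5 days (y axis) of the 45 pathway genes, coloured by the duration at which the adjusted p was below 0.05, with the 10 ligand and receptor genes as open diamonds. The orange points of the 1-day calls, among them Smad6 and Smad7, lie right of 0, and Pdgfb, Tgfb2, Pdgfd and the collagen genes lie low.

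Markers of lung cell types were read beside the smoke differences. Over all rows 5.03% were called higher and 4.43% lower at 1 day, and 3.17% higher and 3.37% lower at 5 days. The share of all rows at an unadjusted p below 0.05 was 21.5% at 1 day and 18.2% at 5 days. At 5 days 4 of 10 endothelial markers were lower, Emcn (-0.29 ± 0.07), Tie1, Cldn5 and Pecam1, and 0 were higher. The mean over the 10 markers ranged from 9.57 to 10.04 in smoke-exposed and from 9.81 to 10.13 in sham-exposed mice. At 5 days 4 of 9 fibroblast markers were lower, Tcf21 (-0.38 ± 0.06), Col1a1, Dpt and Npnt, with a range of 8.20 to 9.01 in smoke-exposed and 8.59 to 9.21 in sham-exposed mice. Without the 4 arrays that stand apart 3 markers of each list were lower. At 5 days 0 of 6 pericyte and 0 of 5 smooth muscle markers were called in limma, with 0 and 2 at an unadjusted p below 0.05. At 1 day 1 of 10 endothelial markers, Cdh5 (0.14 ± 0.03), and 1 of 6 pericyte markers, Kcnj8 (0.23 ± 0.05), were higher, and 0 of 9 fibroblast markers were called in limma, with 5 at an unadjusted p below 0.05. Of 4 leukocyte markers 2, Ptprc and Itgam, were lower at both durations, with list medians of -0.32 and -0.26. At 5 days 2 of 4 alveolar type 2 markers, Abca3 and Lamp3, were lower, and 1 of 3 heart muscle markers, Tnnt2 (0.40 ± 0.11), and 1 of 5 platelet markers, Gp9 (0.37 ± 0.11), were higher. At 1 day 1 of 4 alveolar type 1, 1 of 4 alveolar type 2 and 1 of 3 mesothelium markers were lower. Of 5 alveolar macrophage markers 1 was lower at 5 days. The part of these cell types in the differences of Pdgfb, Tgfb2, Tgfb3, Tgfbr3 and Pdgfra was not tested.

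Whether the 10 genes vary together from mouse to mouse was examined on deviations from the 16 group means, which take out genotype, exposure, sex and duration. Of the 45 pairs, 16 had a Benjamini-Hochberg adjusted p below 0.05 in a two-sided permutation test within groups, 10 positive and 6 negative, and Spearman's rho passed for these 16 and for Pdgfa with Pdgfb. Each of the 16 had the same sign in the 1-day and the 5-day mice. All genes of a mouse share 1 array and 1 piece of lung, whose mix of cells varies. Pairs of other genes were not counted in this way, so it is not known whether 16 of 45 is unusual.

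The pairs fell into a few sets. Pdgfb, Tgfb2 and Tgfb3, the ligand genes that were lower after 5 days, were positively correlated within groups, and so was Pdgfa, which showed no call for smoke, with Tgfb3 (r = 0.55, adjusted permutation p = 0.000321) and Tgfb2 (r = 0.43, adjusted permutation p = 0.0114). Pdgfb and Tgfb2 had r = 0.60 (n = 79, permutation p = 6e-05, adjusted p = 0.000337) and rho = 0.48 (permutation p = 8e-05), and r = 0.49 without the 2 mice farthest from the median of Pdgfb. Tgfb2 and Tgfb3 had r = 0.57 (n = 79, permutation p = 2e-05, adjusted p = 0.00018), rho = 0.51 (permutation p = 5e-05) and r = 0.52 without 2 mice.

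Tgfbr3 went with the PDGF receptor genes and against Tgfb1. Tgfbr3 and Pdgfrb had r = 0.66 (n = 79, permutation p = 2e-05, adjusted p = 0.00018), rho = 0.57 (permutation p = 1e-05) and r = 0.54 without 2 mice. Tgfbr3 and Pdgfra had r = 0.65 (n = 79, permutation p = 1e-05, adjusted p = 0.00018), rho = 0.63 (permutation p = 1e-05) and r = 0.62 without 2 mice. Tgfb1 and Tgfbr3 had r = -0.69 (n = 79, permutation p = 1e-05, adjusted p = 0.00018), rho = -0.58 (permutation p = 1e-05) and r = -0.56 without 2 mice, with r = -0.58 in the 1-day and -0.77 in the 5-day mice. A permutation p of 1e-05 is the smallest these permutations can give.

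Tgfb1 was negatively correlated with Pdgfra as well, with r = -0.55 (n = 79, permutation p = 3e-05, adjusted p = 0.000225), rho = -0.50 (permutation p = 4e-05) and r = -0.44 without 2 mice. This correlation was weak in the 1-day mice (r = -0.22) and strong in the 5-day mice (r = -0.75). With Pdgfrb, Tgfb1 had r = -0.47 (n = 79, permutation p = 0.00562, adjusted p = 0.0181), rho = -0.33 (permutation p = 0.0109) and only -0.24 without 2 mice. Tgfbr2 was in none of the 16 pairs, and its own pairs ran from -0.14 to 0.18. The 2 signalling receptor genes Tgfbr1 and Tgfbr2 had r = -0.14 (n = 79).

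**Figure D5:**
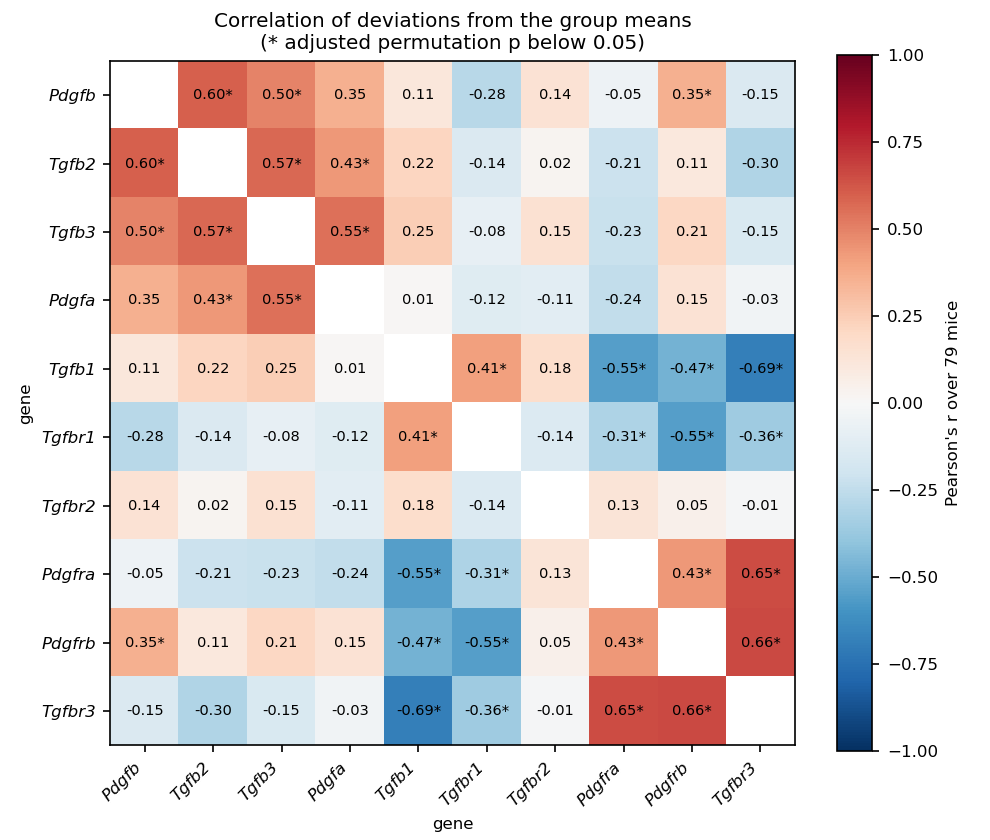
Pearson's r of the deviations from the group means over 79 mice for each pair of the 10 genes, with both axes listing the genes and the colour scale running from -1 (blue) to 1 (red). An asterisk marks an adjusted permutation p below 0.05, and the positive sets of Pdgfb, Tgfb2 and Tgfb3 and of Pdgfra, Pdgfrb and Tgfbr3 stand out beside the negative values of Tgfb1.

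The genes whose deviations were most like those of each gene are given as a description over the same 79 mice. For Pdgfb they were Rasgrp3 (r = 0.78), Epha4 (0.77) and Arhgap20 (0.72), and for Tgfb2 they were Gfra2 (0.70), Bmp3 (0.68) and Ecscr (0.67). For Tgfb1 they were Cotl1 (0.87), Cyba (0.85) and Psap (0.84), and for Tgfbr3 they were Gm13307 (0.88), Tns1 (0.87) and Dock9 (0.86). For Tgfb3 they were Igsf10 (0.72), Rcn3 (0.68) and Mfap5 (0.66), and for Pdgfa they were Oaz2 (0.73), Mex3b (0.73) and Cpq (0.72).

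For Pdgfra the most alike genes were Tmtc1 (0.74), Lmo7 (0.72) and Klf9 (0.72), and for Pdgfrb they were Rnf167 (0.79), Lhfp (0.76) and Reck (0.76). Tgfbr1 and Tgfbr2 had the weakest likeness. Their highest values were 0.59 with Gde1 and 0.58 with Olfr395, after which came Ddhd1 (0.58) and Igf2bp3 (0.57) for Tgfbr1, and Mir669i (0.55) and Polr3e (0.54) for Tgfbr2.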

How the data were processed

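RNA of the right lung of 79 mice was hybridized to Affymetrix mouse gene arrays on 1 plate. The authors deposited log2 intensities that had been corrected for background by RMA and for the GC content and sequence of the probes, quantile-normalized and summarized by median polish, made with Affymetrix Expression Console 1.4 and Partek 6.6 per the submitters' processing notes, and they removed 1 array as mislabelled. These values, from 1.98 to 13.41, were used as they are. Arrays carry no counts, so their number limits the precision. The genome build of the array annotation is not given in the sources used here.

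Rows were named through RefSeq transcript identifiers for 21057 rows and the study's lists for 780, and 9513 stayed without a symbol. Groups came from titles and characteristics. For 13 WT smoke-exposed mice the source name in the labels gives the other genotype, and the titles were followed. Fits used limma 3.58.1 (functions lmFit, eBayes) in R 4.3.3. Genotype was coded βENaC minus WT. Terms were exposure, genotype and sex per duration, both interactions of exposure tested together with a moderated F-test, and exposure, duration and their interaction over all mice. Correlations used 100000 permutations of mice within groups (10000 where 1 mouse was left out), in Python 3.11.15 with numpy 2.4.6, pandas 2.3.3 and matplotlib 3.10.9. The fits were checked on simulated data.

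The 10 genes, the pathway list and the marker lists were chosen with earlier results of these data known. Named pathway genes were the 15 of the list with the smallest adjusted p for exposure or its change with duration, and the genes most alike were the 3 with the highest r. Scnn1b was named to check the labels. Other pathway genes and markers named were chosen after their values were seen. The alternatives were the ordinary linear model, other normalizations, a filter on the lowest 30% of rows, array weights, a prior with trend and robust estimation, a block for replicate number, 1 fit over all mice, single genotypes or sexes, the 1.3-fold threshold and each mouse left out. For the exposure by duration term, genotype and sex were also added. Leaving out the 4 arrays that stand apart was chosen after the data were seen.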

Additional observations from a re-analysis of the deposited data

Results flagged for a closer look

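In 160 tests of a group of 4 to 6 mice, 15 had a mouse far from the others by Dixon's test at its 95% level, where chance gives about 8. WT smoke-exposed female replicate 2 of the 5-day mice had 3 of them, with Pdgfb at 7.61 (others 8.72 to 8.89), Tgfb2 at 6.50 (others 7.25 to 7.51) and Tgfbr3 at 10.01 (others 9.28 to 9.35). βENaC smoke-exposed female replicate 3 of the 5-day mice had Tgfb1 at 9.91 (others 9.00 to 9.10) and Tgfbr3 at 8.37 (others 9.17 to 9.43). βENaC sham-exposed male replicate 2 of the 5-day mice had Pdgfb at 9.59 (others 9.13 to 9.20) and Tgfbr1 at 8.56 (others 8.44 to 8.47).

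The other 8 were spread over 8 mice. In the 5-day mice, Pdgfa was at 6.69 in βENaC sham-exposed female replicate 4, Pdgfb at 8.67 in βENaC smoke-exposed male replicate 4 and Pdgfra at 10.58 in WT sham-exposed male replicate 5. Tgfb3 was at 7.96 in WT sham-exposed female replicate 3 and Tgfbr2 at 9.91 in WT smoke-exposed female replicate 5. In the 1-day mice, Pdgfra was at 10.50 in WT sham-exposed female replicate 2, Pdgfrb at 10.22 in βENaC smoke-exposed female replicate 2 and Tgfbr3 at 8.88 in WT smoke-exposed female replicate 5.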

How the results depend on the processing

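The smoke calls of Pdgfra and Tgfbr3 at 1 day and of Pdgfb, Tgfb2, Tgfb3 and Tgfbr3 at 5 days held under the ordinary linear model, every normalization, the filter, array weights, the trended prior, the replicate block, 1 fit over all mice and without any single mouse. With fewer mice, in single genotypes or sexes, some were lost: 1 gene was called at 5 days in WT mice alone and in females alone, and 1 at 1 day in βENaC mice alone and in females alone. Pdgfb and Tgfb3 were lost at 5 days in WT mice alone and in females alone. Tgfb2 was lost at 5 days in WT mice alone and in males alone. Tgfbr3 was lost at both durations in βENaC mice alone and in females alone. With the 1.3-fold threshold, 0 genes were called for smoke at 1 day, 1 at 5 days, 0 for genotype at either duration and 0 for sex at 1 day. For sex at 1 day 2 genes were called after median centring, quantile or cyclic loess normalization, and for sex at 5 days 1 after median centring, with array weights or in 1 fit over all mice. Correlated pairs numbered 8 in the 1-day mice alone and 9 in the 5-day mice alone, where fewer mice were tested.

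Without 1 mouse at a time, the genes called numbered 2 to 3 for smoke at 1 day, 4 to 5 at 5 days, 2 to 3 and 2 to 5 for genotype, 2 to 5 and 0 to 1 for sex, and 0 to 0 for the change of the smoke difference with duration, genotype or sex, and the correlated pairs 12 to 17. The count of 12 came without βENaC smoke-exposed female replicate 3 of the 5-day mice. Mice with the same replicate number did not deviate together (mean r of 0.012 over 266 pairs, beside -0.0027 over 1098 pairs of different numbers). With the replicate block, 2 genes were called for smoke at 1 day and 4 at 5 days, 2 and 3 for genotype, 5 and 0 for sex, and 0 for each interaction. It lost Tgfbr3 for genotype at 5 days (adjusted p = 0.0612) and added Tgfbr1 there and Tgfb2 for sex at 1 day (adjusted p = 0.0495). No direction of a called difference was reversed. The p-values measure the spread between mice of 1 plate.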
